A study of Homo sapiens with 6 samples.

Results

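The cytosolic ribosomal protein genes were described here in HEY cells, a human ovarian cancer line long kept in culture, with and without overexpression of the microRNA miR-200a. Members were the protein-coding genes of the deposited table whose symbol is RPL or RPS followed by a digit, together with RPLP0, RPLP1, RPLP2 and RPSA, leaving out the ribosomal S6 kinases and chromosome Y. The rule took 89 of 58735 genes. Of these, 77 encode the core proteins of the ribosome, with 31 in the small subunit (40S), 43 in the large subunit (60S) and 3 in the stalk of the large subunit. A further 8 are paralogues of core genes. The other 4 carry the name without encoding a separate ribosomal protein: RPS19BP1, whose product binds RPS19, and the readthrough genes RPL17-C18orf32, RPS10-NUDT3 and RPL36A-HNRNPH2. Ribosomal proteins encoded under other names (FAU and RACK1) were followed beside them.

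Poly(A) RNA was sequenced from HEY cells overexpressing miR-200a (3 libraries) and from HEY cells carrying the empty vector, called HEY NC in the labels (3 libraries). All 6 were grown in RPMI-1640 with 10% serum and carry batch 1 in the labels. The labels give incubation times of 48, 49 and 50 h for miR-200a libraries 1 to 3 and of 51, 52 and 53 h for vector libraries 1 to 3, so, if these are as labelled, group and incubation time cannot be told apart. They rise by 1 h from each library to the next, and whether they were true times was not stated. They give neither the promoter of the construct nor whether the overexpressing cells are 1 clone, and they do not say whether replicates came from separate cultures. The p-values therefore measure a spread between libraries that may be technical.

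Ribosomal proteins are made in near-equal numbers and are assembled with ribosomal RNA in the nucleolus. Their mRNAs are short, abundant and long-lived. Most begin with a terminal oligopyrimidine (TOP) tract, a C followed by an unbroken run of C and T at the capped end, through which the growth-regulating kinase mTOR and the RNA-binding protein LARP1 control how strongly they are translated and stored. An excess of free RPL5 and RPL11, bound to 5S RNA, blocks MDM2 and so stabilises p53. The genome also holds many retrocopies of these mRNAs, which makes their reads hard to place.

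The 5′ ends of representative genes are printed because the tract is the sequence these genes share. Each line gives 15 bases before and 15 bases from the annotated RefSeq start (GRCh38.p14, transcript strand). Capitals mark the pyrimidine run from the C nearest the start that opens one. Pyrimidines before that C stay in lower case. The first 5 are an abundant 60S gene, an abundant 40S gene, the S6 kinase substrate, the base of the stalk and an acidic stalk protein, and the sixth is the core gene that varied most between libraries.
RPL13A chr19:49487593-49487622 (+): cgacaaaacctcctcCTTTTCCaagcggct
RPS12 chr6:132814554-132814583 (+): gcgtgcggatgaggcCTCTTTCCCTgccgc
RPS6 chr9:19380222-19380251 (-): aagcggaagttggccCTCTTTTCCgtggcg
RPLP0 chr12:120201097-120201126 (-): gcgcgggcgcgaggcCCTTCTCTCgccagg
RPLP1 chr15:69452803-69452832 (+): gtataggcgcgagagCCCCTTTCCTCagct
RPS21 chr20:62387088-62387117 (+): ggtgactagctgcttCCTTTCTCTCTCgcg

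In these 6 genes the marked run begins at the annotated start and, counted from there, is 7 bases long in RPL13A and 12 in RPS21. In all except RPLP1, C or T also stand directly before the start, so the unbroken genomic stretch is longer. A run was counted where a C followed by at least 4 C or T on the transcript strand began within 5 bases of an annotated start. Of the 89 genes, 70 had a start in the RefSeq table, and 56 of these 70 (80.0%) had such a run. Among all genes with a start the share was 25.2% (6865 of 27195). With the run required exactly at the start, 48 of the 70 (68.6%) kept it, against 5.16% of all genes. Among the core genes the run was present in 53 of 62 (85.5%), with 20 of 24 in the 40S, 30 of 35 in the 60S and 3 of 3 in the stalk. The 9 core genes without it were RPS15, RPS26, RPS29, RPS4X, RPL6, RPL9, RPL15, RPL17 and RPL27. A match describes these letters only and shows no use of the start in these cells.

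Paralogues carried the run less uniformly, in 2 of 6 with a start. The pairs below set each paralogue under its parent.
RPS27 chr1:153990747-153990776 (+): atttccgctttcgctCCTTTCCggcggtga
RPS27L chr15:63157463-63157492 (-): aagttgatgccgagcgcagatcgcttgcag
RPL22 chr1:6199581-6199610 (-): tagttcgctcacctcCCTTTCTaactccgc
RPL22L1 chr3:170870181-170870210 (-): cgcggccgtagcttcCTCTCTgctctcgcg
RPL26 chr17:8383179-8383208 (-): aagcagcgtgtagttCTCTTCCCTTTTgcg
RPL26L1 chr5:172958714-172958743 (+): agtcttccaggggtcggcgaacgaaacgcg
RPL36A chrX:101390996-101391025 (+): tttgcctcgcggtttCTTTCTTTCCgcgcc
RPL36AL chr14:49620612-49620641 (-): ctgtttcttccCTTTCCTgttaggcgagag

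RPS27L and RPL26L1 hold no run, RPL22L1 holds one at its start, and in RPL36AL the marked run begins 4 bases before the start. In RPL22L1 and RPL36AL, C and T also continue without a break before the marked run.

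The overexpressed microRNA itself acts through its seed, bases 2 to 8 from its 5′ end, shown in capitals (RefSeq, GRCh38.p14, chr1:1167916-1167937, plus strand). Among the ribosomal protein mRNAs, matches to this seed were found in a minority, and 4 are shown with the match in capitals, each from the longest annotated 3′ UTR of the gene (GENCODE 29, GRCh38, transcript strand): the 60S gene with the most negative difference, the stalk gene with the most positive, and 2 others named below.
hsa-miR-200a-3p: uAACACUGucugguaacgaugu
RPL31 chr2:101004708-101004736 (+): ggggtggggggCAGTGTTttttgtcacta
RPLP1 chr15:69455706-69455734 (+): acctcatggtaCAGTGTTgaaaactgcac
RPS28 chr19:8322718-8322746 (+): ttctcttcggcCAGTGTTagcctctgagc
RPL22 chr1:6186103-6186131 (-): ctgtgctccttCAGTGTTgctgccataaa

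Before the ribosomal protein results, the libraries were checked against their labels. Reads recovered on genes ranged from 15849592 to 21003858 per library. MIR200A reads numbered 5, 4 and 11 in the 3 miR-200a libraries, against 0 in each vector library, and ZEB2, a known target of miR-200a, had 1.04, 0.962 and 0.910 FPKM in miR-200a libraries, against 2.10, 2.02 and 1.61 FPKM in vector libraries. FPKM is fragments per kilobase of gene length, scaled for library size, as deposited. The deposited scaling matched a median-of-ratios size factor, which by construction sets the typical gene near the same level in every library. Of 12 ovarian and epithelial markers, PAX8, KRT7, KRT8, KRT18, KRT19, SOX17 and MSLN were expressed, WT1 and EPCAM did not reach 1 FPKM in 3 libraries, and MUC16, CDH1 and FOLR1 were listed at 0 in all 6 libraries. The summed marker level was 404 to 507 FPKM in miR-200a libraries, against 353 to 392 FPKM in vector libraries. Of 16 markers of other cell types, CDH5 (a cadherin of endothelium) and RBFOX3 reached it, while PECAM1 and VWF, also of endothelium, did not and the blood markers CD3E, HBB and HBA1 were at 0. Their summed level was 41 to 53 FPKM in miR-200a libraries, against 37 to 45 FPKM in vector libraries. Not every library was nearest to one of its own group: recovered counts differed with a chi-square of 2.08 per degree of freedom for miR-200a 1 and 3 and 4.61 for vector 2 and 3, but miR-200a 2 was nearest to vector 2 (6.74), and vector 1 differed from each other library by at least 15.3. No library pair differed by as little as sampling noise, so all 6 were counted.

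Ribosomal protein transcripts made up a similar part of the RNA in both groups. They took 5.92, 6.68 and 5.76% of the reads in miR-200a libraries 1 to 3, against 5.44, 7.19 and 6.88% in vector libraries 1 to 3. Their summed level averaged 20794 ± 1937 FPKM in miR-200a libraries and 22334 ± 3682 FPKM in vector libraries (SD, n = 3 each). The lowest and the highest of the 6 sums, 18160 FPKM in vector 1 and 25125 FPKM in vector 2, both belonged to the vector group, so the groups overlapped fully. In bulk RNA, fewer cells of a type and less RNA per cell cannot be told apart.

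The balance of the subunits was also alike. The sum over 40S genes was 0.667 ± 0.032 of the sum over 60S and stalk genes in miR-200a libraries, against 0.668 ± 0.050 in vector libraries (SD, n = 3 each). The 40S sum averaged 8200 ± 1005 FPKM in miR-200a libraries and 8836 ± 1814 FPKM in vector libraries, and the 60S sum 11268 ± 848 FPKM in miR-200a libraries and 12118 ± 1702 FPKM in vector libraries. By library the ratio was 0.654, 0.704 and 0.644 in miR-200a libraries, against 0.611, 0.704 and 0.690 in vector libraries. It was lowest in vector 1, the library with the lowest sum.

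Levels spread widely from gene to gene, although the proteins are used in near-equal numbers. The most abundant were RPL13A, a 60S protein, RPS2 of the small subunit, RPL41, which encodes the smallest ribosomal protein, RPS12 of the small subunit and RPL8, which lies near the peptidyl transferase centre. RPL13A had 1048, 1031 and 1039 FPKM in miR-200a libraries, against 1032, 1169 and 1149 FPKM in vector libraries. RPS2 had 857, 871 and 849 FPKM in miR-200a libraries, against 712, 858 and 839 FPKM in vector libraries. Both pairs of ranges overlapped.

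RPL41 had 700, 937 and 687 FPKM in miR-200a libraries, against 623, 1013 and 968 FPKM in vector libraries. RPS12 had 711, 924 and 658 FPKM in miR-200a libraries, against 529, 1030 and 938 FPKM in vector libraries. RPL8 had 753, 717 and 737 FPKM in miR-200a libraries, against 602, 762 and 768 FPKM in vector libraries. For these 3 genes vector 1 was the lowest library. In all, 60 of the 77 core genes averaged at least 100 FPKM and 5 averaged under 10 FPKM.

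The lowest included RPS10, a 40S protein ubiquitylated on collided ribosomes, RPL36A of the 60S, and RPL26 and RPL17, which line the exit of the peptide tunnel. RPS10 had 0.814, 1.01 and 1.18 FPKM in miR-200a libraries, against 1.05, 0.925 and 1.57 FPKM in vector libraries. RPL36A had 3.29, 3.66 and 3.13 FPKM in miR-200a libraries, against 2.96, 3.44 and 3.06 FPKM in vector libraries. The groups overlapped in each.

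RPL26 had 5.59, 7.28 and 5.86 FPKM in miR-200a libraries, against 5.55, 7.86 and 8.46 FPKM in vector libraries, and RPL17 had 6.27, 8.35 and 7.36 FPKM in miR-200a libraries, against 5.55, 7.21 and 7.54 FPKM in vector libraries. For RPL17, RPS10 and RPL36A these low values stand beside shared sequence. Of the 50-base words of RPL17, 90.3% also occur in another gene of the set, as do 82.6% for RPS10 and 78.4% for RPL36A. For RPL26 this share was 0.0%, while 44.5% of its words occur in its pseudogenes. On the same strand, 39.4% of the RPS10 exons and 32.7% of the RPL17 exons overlap another gene. The largest such overlap of RPL17, RPS10 and RPL36A was with the readthrough gene of the same locus. RPS2 also overlaps other genes on its strand, over 25.6% of its exons. The authors' handling of reads with several placements, or on exons shared between genes, was not given, so the levels of such genes are uncertain.

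The gene length behind each FPKM adds to the spread between genes. It equalled the union of all annotated exons for each gene of the table, 695 to 9845 bases for the set, whereas the main coding sequences are 78 to 1284 bases. RPS29, a zinc-binding 40S protein with a coding length of 171 bases, was divided by 9845 bases and had 17.6, 25.5 and 15.5 FPKM in miR-200a libraries, against 12.8, 31.4 and 23.9 FPKM in vector libraries. Its recovered reads, 3156, 4002 and 2857 in miR-200a libraries, against 2653, 5525 and 3804 in vector libraries, were fewer in every library than those of RPS21 but of the same order. RPS21 was divided by 1023 bases and had 3501, 4550 and 3308 reads in miR-200a libraries, against 2941, 6667 and 5093 in vector libraries. FPKM ratios of a gene with itself between libraries do not depend on this length. The filter of 1 FPKM and the log2(FPKM + 1) differences used below do depend on it, mainly for genes at a few FPKM.

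For the comparison of miR-200a cells with vector cells, which addresses the effect of miR-200a overexpression on each transcript, 84 of the 89 genes passed the filter of 1 FPKM in at least 3 libraries. The other 5 were RPL3L, known from muscle, RPL10L, known from testis, and the 3 readthrough genes, with at most 4 reads in any library. RPL10L and RPL36A-HNRNPH2 had 0 reads throughout, RPL3L had 3 reads in vector 2, RPL17-C18orf32 had 1 and 4 reads in miR-200a 2 and 3, and RPS10-NUDT3 had 2 reads in miR-200a 3.

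None of the 84 genes passed limma's test at an adjusted p under 0.05, in either direction, and voom on the recovered reads called 0 as well. Across all 12231 genes tested, 49 (0.401%) passed, 35 higher and 14 lower. Unadjusted p-values under 0.05 were given to 2 of the 84, RPL6 and RPS19BP1, against 13.3% of all genes. The difference was negative for 72 of the 84 and positive for 12, with a median log2 difference of -0.10. Over all genes 51.9% of the differences were negative and the median was -0.01, which the deposited scaling holds near 0. The median of the 84 stood on single libraries. Leaving out miR-200a library 1, 2 or 3 gave -0.07, -0.20 and -0.05, and leaving out vector library 1, 2 or 3 gave -0.26, -0.0037 and -0.05. Log2 differences are on the log2(FPKM + 1) scale, miR-200a minus vector, are given ± SE, and understate the change of genes at a few FPKM.

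The 95% intervals show how large a difference these libraries could hide. They lay within 2-fold in both directions for 83 of the 84 genes, all except RPS21, and within 1.5-fold for 54. The median standard error was 0.15 for these genes on the log2 scale, against 0.10 for all genes. By class, the median log2 difference was -0.10 for the 31 genes of the 40S (4 positive, 27 negative), -0.11 for the 43 of the 60S (5 positive, 38 negative), -0.07 for the 3 of the stalk and -0.06 for the 6 paralogues tested.

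**Figure D1:**
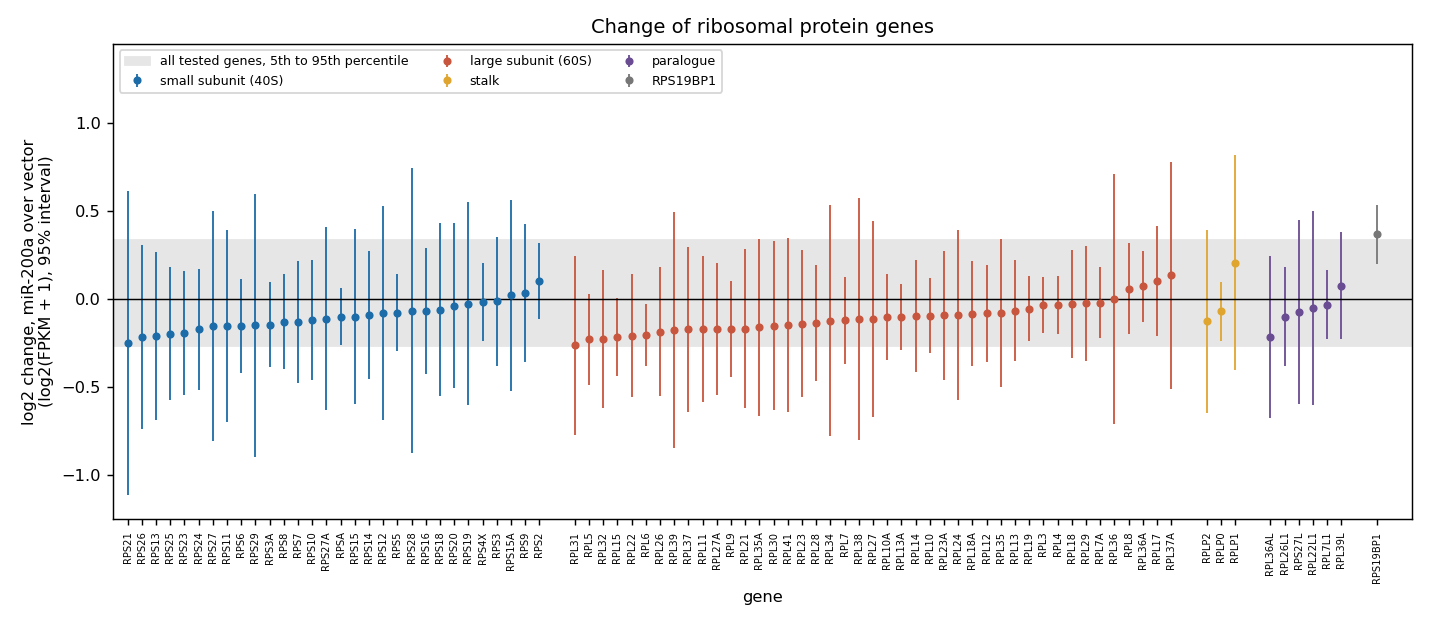
Log2 difference of 83 of the 84 tested ribosomal protein genes, miR-200a over vector on the log2(FPKM + 1) scale (y axis), by gene and class (x axis), with points for the fitted difference, bars for the 95% interval and a grey band for the 5th to 95th percentile of all tested genes. RPS19BP1, at 0.37, lies above the band, and 72 of the points lie below 0 while most bars cross it.

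The most negative differences were those of RPL31, a 60S protein at the tunnel exit, RPS21 of the 40S, RPL5, which carries 5S RNA into the large subunit, RPL32 of the 60S and RPS26, a 40S protein that contacts mRNA leaving the ribosome. RPL31 had 86.8, 112 and 86.9 FPKM in miR-200a libraries, against 80.2, 141 and 129 FPKM in vector libraries, a log2 difference of -0.26 ± 0.22 (SE; limma adjusted p = 0.591). RPS21 had 188, 278 and 173 FPKM in miR-200a libraries, against 137, 365 and 308 FPKM in vector libraries, a difference of -0.25 ± 0.37 (SE; limma adjusted p = 0.762). In both genes vector 1 was below all 3 miR-200a libraries and vector 2 above them.

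RPL5 had 314, 382 and 311 FPKM in miR-200a libraries, against 357, 422 and 400 FPKM in vector libraries, a log2 difference of -0.23 ± 0.11 (SE; limma adjusted p = 0.414). RPL32 had 134, 178 and 140 FPKM in miR-200a libraries, against 141, 209 and 183 FPKM in vector libraries (-0.23 ± 0.17). RPS26 had 98.8, 136 and 90.2 FPKM in miR-200a libraries, against 91.6, 153 and 137 FPKM in vector libraries (-0.22 ± 0.22). The groups overlapped in all 3, through miR-200a 2 or vector 1.

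The most positive differences were those of RPS19BP1, the acidic stalk protein RPLP1, RPL37A and RPL17 of the 60S and RPS2 of the 40S. RPS19BP1 had 6.20, 6.19 and 6.68 FPKM in miR-200a libraries, against 4.98, 4.56 and 4.57 FPKM in vector libraries, from 278 to 470 reads a library. The ratio of means was 1.35, and the log2 difference 0.37 ± 0.07 (SE; 95% interval 0.20 to 0.53; limma adjusted p = 0.117). It was the gene of the set with the smallest adjusted p, and its 3 miR-200a values lay above its 3 vector values. Its product binds RPS19 and is no part of the ribosome.

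RPLP1 had 203, 247 and 195 FPKM in miR-200a libraries, against 120, 248 and 213 FPKM in vector libraries, a log2 difference of 0.21 ± 0.26 (SE; limma adjusted p = 0.724). RPL37A had 90.5, 125 and 83.9 FPKM in miR-200a libraries, against 58.0, 116 and 106 FPKM in vector libraries (0.13 ± 0.27). In both, vector 1 was the lowest library, and leaving it out turned the sign, to -0.11 for RPLP1 and -0.17 for RPL37A. Leaving out miR-200a 2 also turned that of RPL37A, to -0.04. RPL17 and RPS2, whose values are given above, had log2 differences of 0.10 ± 0.13 and 0.10 ± 0.09.

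Groups that did not overlap were no more common here than among all genes. RPSA and RPL6 were lower in all 3 miR-200a libraries than in any vector library, 2 of 84 against 10.7% of all genes, and RPS19BP1 was higher, 1 of 84 against 8.29%. RPL6, a 60S protein named after its values were seen, had 251, 280 and 253 FPKM in miR-200a libraries, against 302, 307 and 295 FPKM in vector libraries, a log2 difference of -0.21 ± 0.08 (SE; limma adjusted p = 0.333). RPSA, a 40S protein also known as the laminin receptor, had 334, 335 and 326 FPKM in miR-200a libraries, against 342, 367 and 359 FPKM in vector libraries (-0.10 ± 0.07). In RPSA the closest values of the groups, 335 and 342 FPKM, were near each other.

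Genes with known roles beyond the ribosome gave small differences. RPL11, the partner of RPL5 on 5S RNA, had 209, 262 and 193 FPKM in miR-200a libraries, against 195, 292 and 266 FPKM in vector libraries (log2 difference -0.17 ± 0.18). RPS6, the substrate of S6 kinase, had 418, 482 and 395 FPKM in miR-200a libraries, against 423, 519 and 499 FPKM in vector libraries (-0.15 ± 0.11). RPS3, which lines the mRNA entry channel, had 297, 303 and 287 FPKM in miR-200a libraries, against 230, 334 and 346 FPKM in vector libraries (-0.01 ± 0.16). For RPL11 and RPS3 vector 1 lay below the other vector libraries and inside or below the miR-200a range.

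RPL10, which joins late and makes the 60S able to pair with the 40S, had 235, 242 and 233 FPKM in miR-200a libraries, against 225, 269 and 268 FPKM in vector libraries (log2 difference -0.10 ± 0.09). RPL22, which also binds its own and other RNAs outside the ribosome, had 27.1, 35.7 and 26.7 FPKM in miR-200a libraries, against 28.7, 37.4 and 37.6 FPKM in vector libraries (-0.21 ± 0.15). RPS27 of the 40S had 251, 344 and 237 FPKM in miR-200a libraries, against 197, 409 and 352 FPKM in vector libraries (-0.15 ± 0.28). None of these passed limma's test (adjusted p of 0.539 for RPL22, 0.642 for RPL10 and 0.811 for RPS27), and their groups overlapped.

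The larger differences ran between libraries of 1 group. On the log2 scale, the median deviation of the 84 genes from their own means was -0.13, 0.13 and -0.17 in miR-200a libraries 1 to 3, against -0.26, 0.25 and 0.17 in vector libraries 1 to 3. Over the other 12147 genes the same medians lay between -0.01 and 0.01, which the deposited scaling largely fixes in advance. Vector 1 was the lowest library for 55 of the 84 genes, against 16.7% of the other genes, and vector 2 the highest for 63, against 19.0%. Other short genes shared part of this. With a coding length under 300 bases, vector 1 was lowest for 58.0% of 193 other genes and 100% of 11 ribosomal protein genes. Vector 2 was highest for 38.9% and 72.7% of them. The 84 genes moved together, with a median Pearson r of 0.854 over the 3486 pairs of genes across the 6 libraries, which share depth and preparation. Reads on genes were most numerous in vector 1 and least in miR-200a 2, and the part of depth, RNA quality or preparation in this pattern was not tested.

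**Figure D2:**
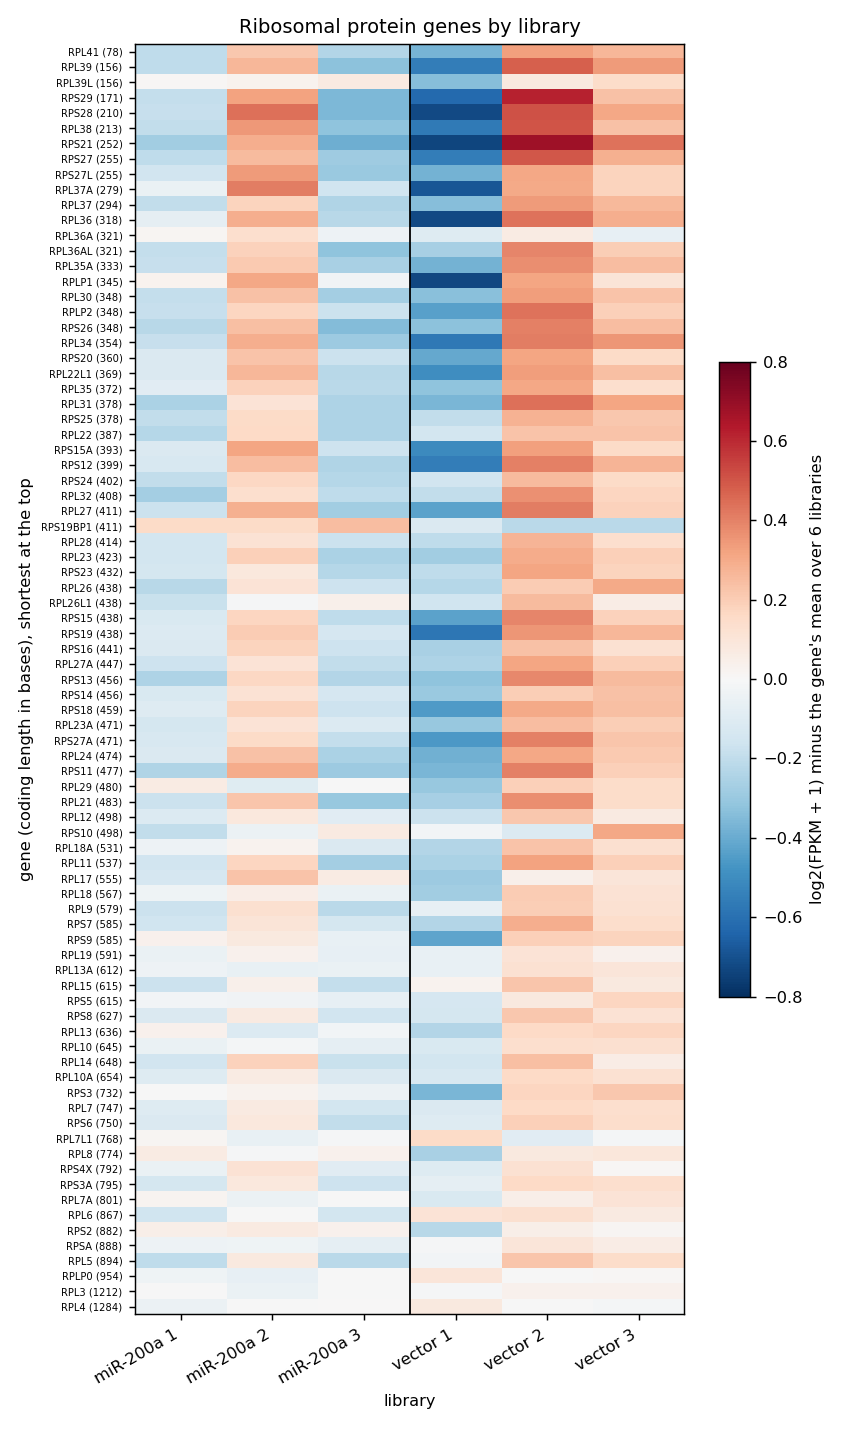
Deviation of 83 of the 84 tested ribosomal protein genes, each from its own mean on the log2(FPKM + 1) scale (colour), by library (x axis) and by gene in order of coding length, shortest at the top (y axis). Vector 1 is the lowest library for 55 of 84 genes and vector 2 the highest for 63, and the colours fade toward the long genes at the bottom.

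This shared movement was larger in shorter genes. The 5 core genes with the largest spread were RPS21, RPS28 and RPS29 of the 40S and RPL36 and RPL38 of the 60S, with SDs over the 6 libraries of 0.55, 0.50, 0.46, 0.43 and 0.42 on the log2 scale and coding lengths of 252, 210, 171, 318 and 213 bases. RPS28, which sits near the mRNA exit, had 78.3, 121 and 69.4 FPKM in miR-200a libraries, against 53.6, 127 and 111 FPKM in vector libraries. RPL38, required in mouse for the translation of particular Hox mRNAs, had 54.8, 80.2 and 50.0 FPKM in miR-200a libraries, against 42.2, 89.3 and 74.2 FPKM in vector libraries. RPL36 had 86.4, 111 and 77.8 FPKM in miR-200a libraries, against 54.6, 123 and 111 FPKM in vector libraries.

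In each of these genes vector 1 was the lowest and vector 2 the highest library, and for RPS21 the highest value was 2.67 times the lowest. The 3 with the smallest spread were the long genes RPL3, whose product reaches toward the peptidyl transferase centre, RPL4, which lines the peptide tunnel, and RPLP0, the base of the stalk. RPL3 had 530, 512 and 529 FPKM in miR-200a libraries, against 526, 542 and 543 FPKM in vector libraries (log2 difference -0.04 ± 0.07). RPL4 had 391, 403 and 405 FPKM in miR-200a libraries, against 426, 403 and 399 FPKM in vector libraries (-0.04 ± 0.07). RPLP0 had 612, 601 and 626 FPKM in miR-200a libraries, against 672, 626 and 632 FPKM in vector libraries (-0.07 ± 0.07).

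RPL4 and RPLP0 were highest in vector 1, the library in which most of the set was lowest. Over the 84 genes, coding length and the SD over libraries had a Spearman rho of -0.784, beside -0.115 over 10168 other genes with a coding length. The length ranges differ, since 8917 of those other genes have 600 bases or more and the set ends at 1284 bases. The 2 values are therefore not directly comparable. The median SD was 0.41 for the 11 genes with a coding length under 300 bases, 0.28 for the 31 of 300 to 450 bases, 0.21 for the 19 of 450 to 600 bases and 0.13 for the 23 of 600 bases or more. Other genes of the same length ranges had median SDs of 0.22 (193 genes), 0.17 (443), 0.15 (615) and 0.13 (8917). The medians of the long ribosomal protein genes and of other long genes were thus equal, while that of the short ones stood above that of other short genes. The library order remained in the long ones. Vector 2 was highest for 56.5% of the 23, against 17.0% of other long genes, and vector 1 lowest for 39.1%, against 12.2%.

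The ratio of vector 2 to vector 1 showed the same order. Its median was 2.05 in the shortest ribosomal protein genes, 1.58 and 1.44 in the middle ranges and 1.17 in the longest, beside 1.29, 1.20, 1.12 and 0.973 for other genes of those ranges. Removing the trend of each library on coding length, an alternative chosen after seeing the data, lowered the median SD of the 84 genes to 0.15, beside 0.13 for other genes, and left the deviations at -0.10, 0.06 and -0.13 in miR-200a libraries and -0.12, 0.17 and 0.11 in vector libraries. It left 0 genes called and a median log2 difference of -0.11. Without vector 1, 37 of the 84 genes had an unadjusted p under 0.05, against 13.4% of all genes, and still 0 passed after adjustment in limma.

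**Figure D3:**
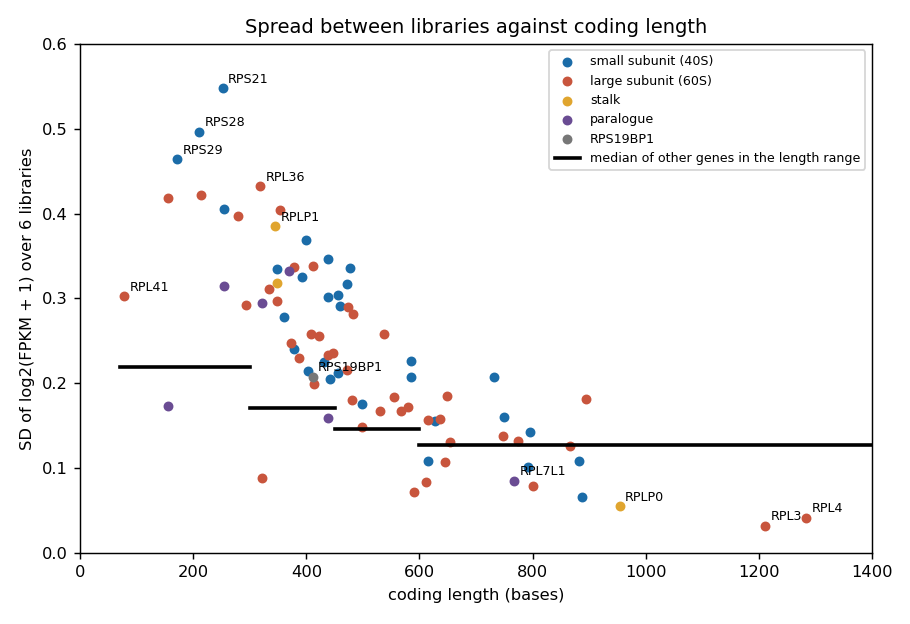
SD over the 6 libraries on the log2(FPKM + 1) scale (y axis) against coding length in bases (x axis) for 83 of the 84 tested ribosomal protein genes, coloured by class, with black bars for the median of other genes in 4 length ranges. The points fall from 0.55 for RPS21 to under 0.06 for RPL3, RPL4 and RPLP0, and in the shortest range most lie above the bar.

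Paralogues replace or accompany their parents in some ribosomes, and their share of the pair can be compared within a library. RPL22L1 was the more abundant of its pair, with 106, 138 and 98.2 FPKM in miR-200a libraries, against 81.0, 145 and 136 FPKM in vector libraries, where RPL22 had the lower values given above. RPL22L1 stood at 3.82 times RPL22 in miR-200a libraries, against 3.40 times in vector libraries (geometric means of FPKM ratios). RPL22 is divided by 4682 bases and RPL22L1 by 2326. Per kilobase of main mRNA (2190 bases for RPL22L1 and 2078 for RPL22), the mean levels over the 6 libraries were 125 for RPL22L1 and 72.6 for RPL22, so the size of the ratio depends on the length used. Their log2 ratio was 1.93 ± 0.05 in miR-200a libraries and 1.77 ± 0.24 in vector libraries (SD, n = 3 each), a difference of 0.17 with an exact two-sided permutation p of 0.3, where 3 against 3 libraries cannot give a p below 0.1.

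RPL26L1 had 20.2, 22.8 and 23.7 FPKM in miR-200a libraries, against 20.4, 27.5 and 24.1 FPKM in vector libraries, which is 3.58 times RPL26 in miR-200a libraries, against 3.32 times in vector libraries. RPL36AL had 103, 134 and 94.5 FPKM in miR-200a libraries, against 98.2, 155 and 135 FPKM in vector libraries. It stood at 32.6 times RPL36A in miR-200a libraries, against 40.5 times in vector libraries. The parents RPL26 and RPL36A are both among the lowest core genes and are divided by long gene lengths (2513 and 3964 bases), while RPL36AL is divided by 746. Per kilobase of main mRNA, RPL26L1 averaged 39.6 and RPL26 32.2, and RPL36AL averaged 120.2 and RPL36A 30.1. This length does not account for shared sequence. Of the words of RPL36A, 78.4% also occur in another gene of the set, and 44.5% of those of RPL26 occur in its pseudogenes. In all libraries together, RPL36A had 1389 recovered reads and RPL26 had 1814. Pseudogenes held 6.21% of the reads of the RPL36A family and 23.4% of the RPL26 family. Whether reads lost by the parents raised these ratios was not tested.

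RPS27L, a p53-induced relative of RPS27, had 11.7, 16.9 and 10.5 FPKM in miR-200a libraries, against 9.89, 16.6 and 15.0 FPKM in vector libraries, 0.0467 times RPS27 in miR-200a libraries, against 0.0443 times in vector libraries. RPL39L, best known from testis and some tumours, had 34.2, 34.7 and 35.7 FPKM in miR-200a libraries, against 26.6, 35.9 and 37.7 FPKM in vector libraries, 0.213 times RPL39 in miR-200a libraries, against 0.178 times in vector libraries. RPL7L1, a relative of RPL7 found in ribosome precursors, had 33.6, 31.9 and 33.0 FPKM in miR-200a libraries, against 37.1, 31.1 and 32.9 FPKM in vector libraries, 0.0558 times RPL7 in miR-200a libraries, against 0.0524 times in vector libraries. Each of these paralogues was far below its parent in FPKM in every library, and the groups overlapped in each. The size of these ratios also depends on the gene lengths used. Recovered reads over the 6 libraries numbered 13026 for RPS27L and 32767 for RPS27, which is divided by 1035 bases. They numbered 3876 for RPL39L and 40849 for RPL39, and 28185 for RPL7L1 and 192558 for RPL7.

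Over the 6 pairs tested, the difference in log2 ratio, miR-200a minus vector, ran from -0.31 for RPL36AL over RPL36A to 0.26 for RPL39L over RPL39, and was positive in 5. The exact permutation p ran from 0.2 to 0.8 and, after Benjamini-Hochberg adjustment over the 6 pairs, from 0.72 to 0.8. Leaving out vector 1 reduced the difference for RPL22L1 over RPL22 to 0.030. RPL3L and RPL10L were not compared with their parents, since they were at 0 in at least 5 libraries.

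**Figure D4:**
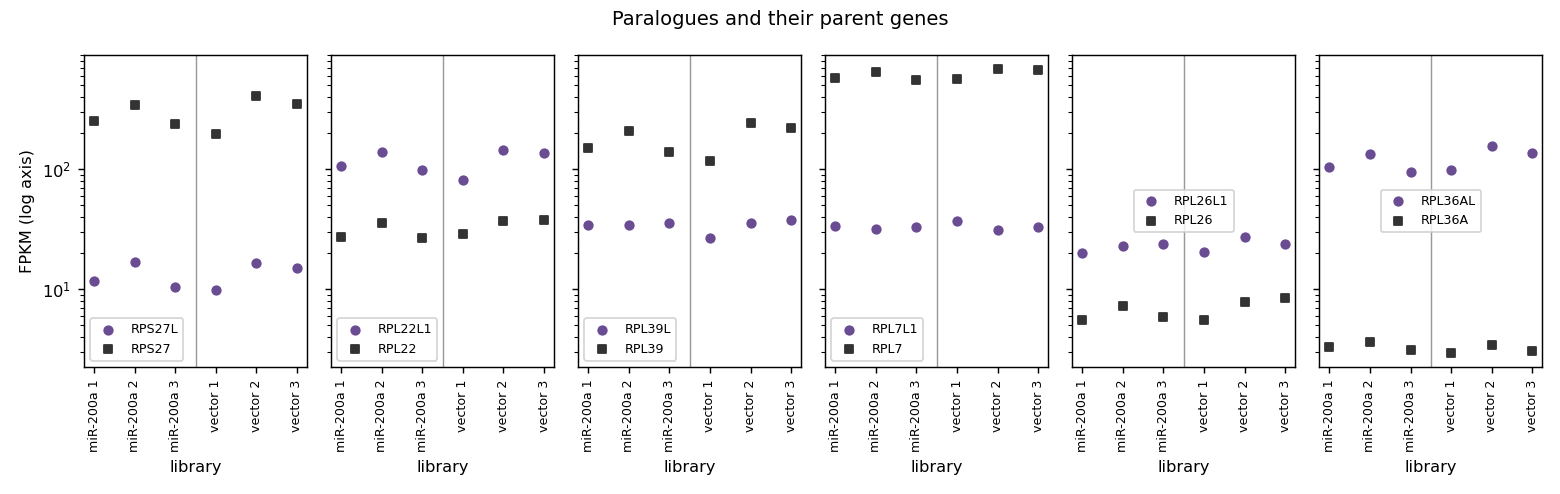
FPKM on a log axis (y axis) of each paralogue (circles) and its parent (squares) in the 6 libraries (x axis), with miR-200a libraries left of the line. RPL22L1, RPL26L1 and RPL36AL lie above their parents in every library, and RPS27L, RPL39L and RPL7L1 below.

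Pseudogenes named after these genes carried a small part of the reads. Of 1144 such pseudogenes, 713 had 0 reads in all 6 libraries and 80 passed the filter. Together they held 197774 reads, against 6732624 on the 89 genes, or 2.85% of the total of both. None of the 80 passed limma's test (smallest adjusted p = 0.246), and their median log2 difference was -0.11. Their summed level was 3030 ± 241 FPKM in miR-200a libraries, against 3244 ± 329 FPKM in vector libraries (SD, n = 3 each).

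In 7 families the share on pseudogenes was over 10%. It was 63.0% for RPS10, 34.2% for RPL9, 33.3% for RPS28, 23.4% for RPL26, 12.9% for RPSA, 12.1% for RPL7 and 11.8% for RPL22. RPS28P7, on chromosome 11 (82689559 to 82689768, GRCh38), had 391, 566 and 344 FPKM in miR-200a libraries, against 352, 576 and 574 FPKM in vector libraries, which is above RPS28 itself. All of its 50-base words (100%) occur in RPS28 transcripts, and it is divided by 210 bases where RPS28 is divided by 2119. The groups overlapped in these 7 families. For RPS2 the share was 8.75, 10.2 and 8.61% in miR-200a libraries, against 6.32, 8.26 and 7.26% in vector libraries, with no overlap. RPS2 was picked out of 87 families with reads after its values were seen. RPL3 and RPS20 went the other way, also with no overlap. RPL3 had 1.37, 1.43 and 1.36% in miR-200a libraries, against 1.71, 1.55 and 1.57% in vector libraries. RPS20 had 0.509, 0.484 and 0.505% in miR-200a libraries, against 0.678, 0.598 and 0.590% in vector libraries. RPL34 and RPS3 were also lower in miR-200a libraries and RPL35A higher, with no overlap. Their shares over the 6 libraries were small, 0.268% for RPL34, 0.0164% for RPS3 and 0.0436% for RPL35A. These differences were not tested.

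RPL9P9, on chromosome 15 (82372196 to 82372912), had 330, 365 and 311 FPKM in miR-200a libraries, against 337, 395 and 400 FPKM in vector libraries, with 84.5% of its words in RPL9. RPL39P3, on chromosome 6 (73373108 to 73373263), had 185, 225 and 158 FPKM in miR-200a libraries, against 140, 245 and 222 FPKM in vector libraries, with 100% of its words in RPL39. In all 3 pseudogenes the highest library was a vector library, and the groups overlapped. Summing each gene with its pseudogenes left 0 genes called and a median log2 difference of -0.10, and 24 of the 89 genes share no 50-base word with a pseudogene of their own name.

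**Figure D5:**
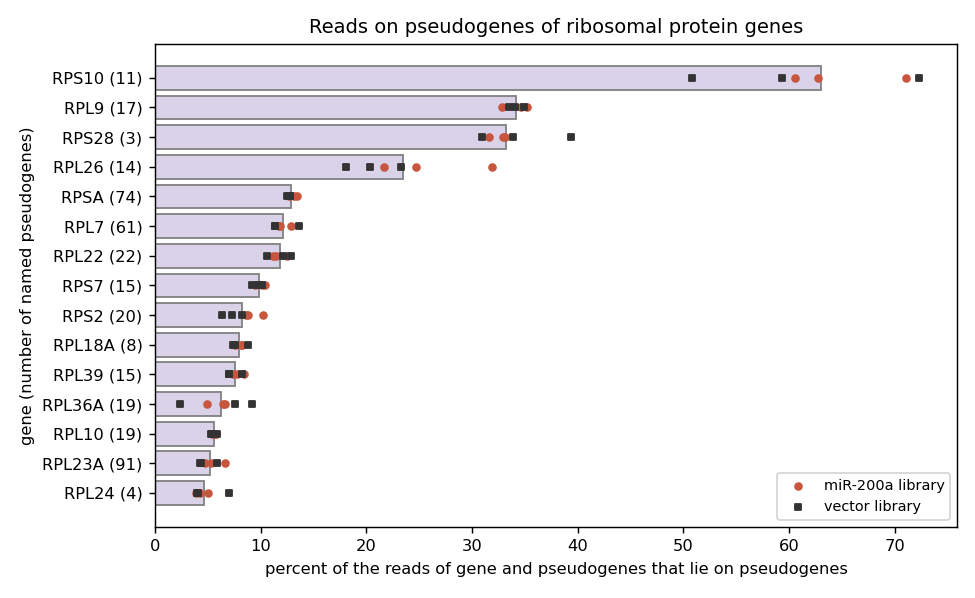
Percent of the reads of a gene and its pseudogenes that lie on the pseudogenes (x axis) for the 15 families with the largest share (y axis, number of pseudogenes in parentheses), with bars for the 6 libraries pooled and points for each library. RPS10 (63.0%) and RPL9 (34.2%) lead, and in the 7 families over 10% the points of both groups overlap, while for RPS2 (8.25%) they do not.

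Seed matches to miR-200a-3p (CAGTGTT on the transcript strand) were present in the longest annotated 3′ UTR of 12 of the 84 tested genes (14.3%), against 2263 of 10216 tested coding genes (22.2%). The 3′ UTRs of these genes are shorter, with a median of 470 bases, against 1419 bases for the tested coding genes. The 12 were RPL7L1, RPL10, RPL22, RPL23, RPL28, RPL31, RPL37, RPLP1, RPS20, RPS23, RPS27L and RPS28, with 2 matches in RPL7L1, RPL37 and RPS27L and 1 in the other 9. Their log2 differences ran from -0.26 (RPL31) to 0.21 (RPLP1), both shown above with their matches.

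The median log2 difference was -0.12 with a match and -0.10 without among these genes, and -0.05 with and 0.01 without among the tested coding genes. The smallest adjusted p of the 12 was 0.539 in limma, that of RPL22. A match in the longest annotated 3′ UTR may lie outside the form used in these cells, and its use was not tested.

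The ribosomal proteins with other names gave the same kind of values. FAU, a fusion of a ubiquitin-like domain and a 40S protein, had 99.4, 114 and 92.5 FPKM in miR-200a libraries, against 71.6, 122 and 121 FPKM in vector libraries (log2 difference -0.0028 ± 0.21). RACK1, a scaffold on the head of the 40S, had 248, 230 and 246 FPKM in miR-200a libraries, against 266, 254 and 252 FPKM in vector libraries (-0.09 ± 0.07). FAU, with a coding length of 402 bases, was lowest in vector 1, and RACK1, with 954 bases, was highest there.

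Other genes whose mRNAs carry a TOP tract were followed as a further list, of which 17 of 18 were tested, 0 were called by limma, and 15 had a negative and 2 a positive difference (median -0.16). EEF1A1, the elongation factor that brings tRNA to the ribosome, had 2069, 2058 and 2089 FPKM in miR-200a libraries, against 2579, 2301 and 2312 FPKM in vector libraries (-0.21 ± 0.08; limma adjusted p = 0.349). NAP1L1, a histone chaperone, had 45.2, 54.5 and 44.1 FPKM in miR-200a libraries, against 54.5, 62.9 and 61.2 FPKM in vector libraries (-0.31 ± 0.10; adjusted p = 0.317). In EEF1A1 the groups did not overlap, and vector 1 was the highest library. In NAP1L1, miR-200a 2 and vector 1 had nearly the same value.

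The host genes of small nucleolar RNAs with a TOP start, which share the start but mostly make no protein, gave 1 positive and 10 negative differences over 11 genes (median -0.16, 0 called by limma). Their median deviations were -0.19, 0.13 and -0.23 in miR-200a libraries, against -0.19, 0.21 and 0.19 in vector libraries, the same library order as the ribosomal protein genes except that miR-200a 3 was lowest. The tract was present within 5 bases of a start in 6 of 10 of these genes and in 10 of 12 of the other TOP list. Among core ribosomal protein genes, the 53 with the run had a median log2 difference of -0.10, and the 9 without it -0.15.

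Mitochondrial ribosomal proteins, which build a separate ribosome and whose mRNAs are not known as TOP mRNAs, were listed beside them. Of 48 tested large-subunit genes, 23 had a positive and 25 a negative difference (median -0.01), and of 29 small-subunit genes 13 and 16 (median -0.03), with 0 called by limma. Their median SDs over libraries were 0.14 and 0.13, against 0.23 for the cytosolic 40S and 0.20 for the 60S. Median coding lengths were 573 and 606 bases for the mitochondrial lists and 456 and 480 bases for the cytosolic lists, so the lists also differ in length.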

How the data were processed

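The authors deposited 1 table of FPKM values for 58735 genes in 6 libraries, 3 of HEY cells overexpressing miR-200a and 3 of vector cells. Per the labels' protocols, libraries were made from poly(A) RNA with a SMARTer kit. Mouse builds (GRCm38, mm10) are named in the submitters' processing notes, but every identifier, start and end in the deposited table equals the human GENCODE 29 annotation, so coordinates are on GRCh38. Aligner, counter and strand setting were not given in the sources used here. FPKM times gene length gave whole reads for 100% of values within 0.001, with 15849592 to 21003858 reads per library. No column of another sample was present.

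Log2(FPKM + 1) values of genes with at least 1 FPKM in at least 3 libraries were fitted with limma 3.58.1 (R 4.3.3, moderated variance with trend), with Benjamini-Hochberg adjustment over 12231 genes. The steps of the fit were run on simulated reads drawn independently for each gene. Those reads held no pattern shared within a library, so the simulation does not speak to the spread of these libraries. Voom on recovered reads, other scalings, filters, pseudocounts and left-out libraries were alternatives. Paralogue ratios were tested by exact permutation over 20 splits.

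Replicate numbers were not used to pair the samples in the main fit. Same-numbered deviations correlated at 0.143, 0.366 and -0.0059, and deviations of unlike numbers at -0.27 to 0.20. With 3 libraries a group these values cannot decide whether the numbers pair the samples. Members and lists were chosen with earlier results of these data known. Genes named were those past the threshold, the 5 highest and 5 lowest core levels, the 5 largest differences in each direction, the 5 largest and 3 smallest spreads, 9 genes with known roles, all paralogues and the genes outside both lists. From other lists, up to 3 genes with the smallest adjusted p, and the 3 highest pseudogenes, could be named. Some genes are not reported here by name.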

Additional observations from a re-analysis of the deposited data

How the results depend on the processing

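The count of 0 ribosomal protein genes called held under each other pseudocount, filter, scaling and test and without each library (smallest adjusted p 0.058), with the 1 exception of the length trend and block together, below. The median log2 difference ran from -0.26 to -0.0037 over the left-out libraries. Of 590 single-gene comparisons for 37 named and tested genes over 16 alternatives, 547 kept their direction, side of the threshold and size, 34 (in 19 genes) changed sign, 3 moved in size and 6 newly passed. No difference that changed sign passed the test (smallest adjusted p = 0.381). Of the 34 sign changes, 30 came with a library left out, where the log2 difference ran from -0.68 to 0.024 for RPS21, -0.50 to 0.12 for RPS29, -0.47 to 0.057 for RPS27, -0.44 to 0.17 for RPS28, -0.43 to 0.11 for RPL38, -0.38 to 0.10 for RPS12, -0.36 to 0.22 for RPL36, -0.31 to 0.10 for RPL22L1, -0.28 to 0.065 for RPS27L, -0.20 to 0.0075 for RPS10 and -0.20 to 0.092 for RPS3. It ran from -0.17 to 0.32 for RPL37A, -0.11 to 0.42 for RPLP1, -0.087 to 0.036 for RPL7L1, -0.074 to 0.17 for RPL39L, -0.057 to 0.12 for RPL8 and -0.016 to 0.20 for RPL17. The other 4 were RPS3 at 0.012 with TPM scaling, RPL3 at 0.013 and RPL4 at 0.067 with quantile normalization, and RPL36 at -0.00082 summed with its pseudogenes. All genes called numbered 49, and 5 without the filter on low values, 114 with voom, 140 after removal of the coding-length trend, and 8 to 225 over the left-out libraries, with 225 without miR-200a 2. The cause was not tested. With the replicate number as a block, 0 ribosomal protein genes and 69 of all genes were called, and the paralogue differences were the same, with exact p of 0.25 to 1. With that block and the length trend removed together, an alternative chosen after seeing the data, 9 ribosomal protein genes were called (higher RPLP1 and RPS19BP1, lower RPL5, RPL6, RPL15, RPL31, RPL32, RPS13 and RPS21), among 1601 of 10252 genes. Not every library correlated best with the one of its own number. The planned edgeR fit on the recovered reads was not run. The paralogue difference ran from -0.017 to 0.247 for RPL7L1 over RPL7 and from -0.0057 to 0.202 for RPL26L1 over RPL26 over the left-out libraries, changing sign without vector 2 and vector 3. Genes of under 500 reads a library, such as RPS10, RPL17, RPL26 and RPS19BP1, rest on few counts, and the part of their spread due to counting was not separated.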

Other observations

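Other parts of the translation machinery were followed as lists, each described by its counts and median log2 difference beside the median of -0.01 over all genes. None of these lists had a gene past limma's threshold. Of 35 translation initiation factors 28 had a negative and 7 a positive difference (median -0.08), of 10 elongation factors tested 5 and 5 (median 0.02), and of 52 ribosome biogenesis genes 33 and 19 (median -0.08). Among 26 regulators of ribosomal protein genes and TOP mRNAs the split was 14 negative and 12 positive (median -0.01). MYC, LARP1, MDM2 and CDKN1A are named for their roles, outside the rule for named genes. MYC, a transcription factor for ribosome genes, had 91.6, 65.9 and 95.4 FPKM in miR-200a libraries, against 90.8, 68.7 and 75.7 FPKM in vector libraries, with miR-200a 2 and vector 2 the lowest of their groups. LARP1, which binds TOP tracts, had 56.8, 50.0 and 57.4 FPKM in miR-200a libraries, against 61.5, 52.7 and 53.8 FPKM in vector libraries, and the groups overlapped.

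In the list of the 5S particle and the p53 pathway, 9 genes had a positive and 9 a negative difference. MDM2, the ubiquitin ligase that RPL5 and RPL11 block, had 15.1, 16.1 and 13.9 FPKM in miR-200a libraries, against 15.6, 15.9 and 15.4 FPKM in vector libraries. CDKN1A, a p53 target that stops the cell cycle, had 120, 99.1 and 124 FPKM in miR-200a libraries, against 116, 100.5 and 110 FPKM in vector libraries. CCNG1, another p53 target, had 70.2, 84.2 and 69.9 FPKM in miR-200a libraries, against 95.4, 114 and 110 FPKM in vector libraries (log2 difference -0.51 ± 0.11, limma adjusted p = 0.153). The groups overlapped for MDM2 and CDKN1A and not for CCNG1. The lists of ribosome quality control (17 genes) and of enzymes that modify ribosomal proteins (8 genes) had medians of 0.03 and -0.0023.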
